A study of Mus musculus with 6 samples.

Results

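*Foxp3*, *Ikzf2*, *Ikzf4*, *Lrrc32*, *Nrp1* and *Gpr83*, 6 genes used to recognise regulatory T cells (Tregs), were followed in whole B16-F10 tumors of mice given ACT + IL-2 or ACT + NKTR-214. Each gene was the entry with that symbol among the 21358 entries of the deposited expression values, so all 6 were found by name. *Foxp3* stayed at about 2.2 FPKM in both groups (FPKM is a level corrected for exon length and for the mapped reads of the library), while *Cd3e* and *Cd8a* of the same tumors had 14.7-fold and 14.2-fold higher means after ACT + NKTR-214. *Ikzf4* and *Lrrc32* were higher in ACT + NKTR-214 tumors, *Ikzf2* and *Nrp1* did not pass the test, and *Gpr83* gave at most 1 read in a library.

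Tregs are CD4 T cells that restrain immune responses, and they need IL-2, which they take up through the high-affinity receptor that contains CD25, the product of *Il2ra*. Their defining transcription factor is Foxp3. Helios (*Ikzf2*) and Eos (*Ikzf4*) are zinc finger transcription factors of the Ikaros family that act with Foxp3. GARP (*Lrrc32*) holds latent TGF-β on the surface of activated Tregs, neuropilin-1 (*Nrp1*) is a co-receptor for semaphorins and VEGF, and Gpr83 is a G protein-coupled receptor found on mouse Tregs. Several of these genes are also used by other cells: *Nrp1* and *Lrrc32* are known in endothelium, *Lrrc32* in platelets and *Nrp1* in plasmacytoid dendritic cells.

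C57/BL6 mice carried subcutaneous B16-F10 tumors, a melanoma line of the same strain. After total body irradiation, when tumors reached at least 150 mm3, all received peptide-activated splenocytes of pmel-1 mice. The CD8 T cells of these mice carry a transgenic receptor that recognises the melanoma antigen gp100. In 1 group ACT was followed by daily injections of IL-2 (0.4 mg/kg) at the start of each cycle, and in the other by NKTR-214, a pegylated IL-2 that favours the IL-2 receptor βγ chains, given once a cycle (0.8 mg/kg). Tumors of 3 mice per group were taken at day 12 of treatment, with 1 library each, and no untreated tumor was analysed here. The study compared both cytokines as support for the transferred T cells, and the balance between CD8 T cells and Tregs was among its readouts. In RNA of a whole tumor, a change in the number of Tregs and a change in RNA per Treg cannot be told apart, and transferred and host T cells cannot be told apart either.

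IL-2 signals through STAT5, which is known to act on *Foxp3*, so the sequence before an annotated *Foxp3* start is shown. It is the stretch on the plus strand of GRCm38.p6 (RefSeq) at chrX:7580233-7580482, and capitals mark its only match to the STAT5 consensus TTCNNNGAA, which reads the same on both strands. The match begins 139 bases before the start, and the stretch lies within an exon of the noncoding RNA *Flicr* in GENCODE vM21.

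Foxp3: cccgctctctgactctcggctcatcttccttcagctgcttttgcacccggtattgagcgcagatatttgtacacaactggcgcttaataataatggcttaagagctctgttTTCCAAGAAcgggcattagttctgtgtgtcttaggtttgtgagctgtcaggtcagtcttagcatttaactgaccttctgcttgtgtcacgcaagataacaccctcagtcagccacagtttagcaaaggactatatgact

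Such a match was present in 7.02% of 32851 windows of 250 bases before starts in the same table. The windows before the other listed *Foxp3* start, before *Nrp1* and before *Gpr83* held no match. No protein binding was measured, and a match of letters is a description only.

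Libraries held an estimated 20900000 to 24600000 mapped reads. The melanoma genes *Tyrp1*, *Dct*, *Pmel* and *Mlana* lay between 382 and 2209 FPKM in all 6 tumors. T cell genes differed between the groups: 9 of 9 T cell reference genes were higher in ACT + NKTR-214 tumors, beside 20.7% of all genes tested. *Cd3e*, the CD3 epsilon chain of all T cells, had FPKM values of 5.30, 1.97 and 1.99 after ACT + IL-2 and of 51.7, 58.2 and 26.4 after ACT + NKTR-214, in the order of replicates 1 to 3 used throughout. *Cd8a*, the CD8 alpha chain, was 3.89, 2.32 and 1.73 FPKM against 42.4, 47.3 and 23.0 FPKM. *Cd4* was 0.758, 0.212 and 0.309 FPKM against 1.27, 1.38 and 0.952 FPKM, so *Cd8a* exceeded *Cd4* in every tumor. Replicate 1 was the tumor with the highest *Cd3e*, *Cd8a* and *Cd4* in the ACT + IL-2 group, and replicate 3 had the lowest in the ACT + NKTR-214 group.

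**Figure D1:**
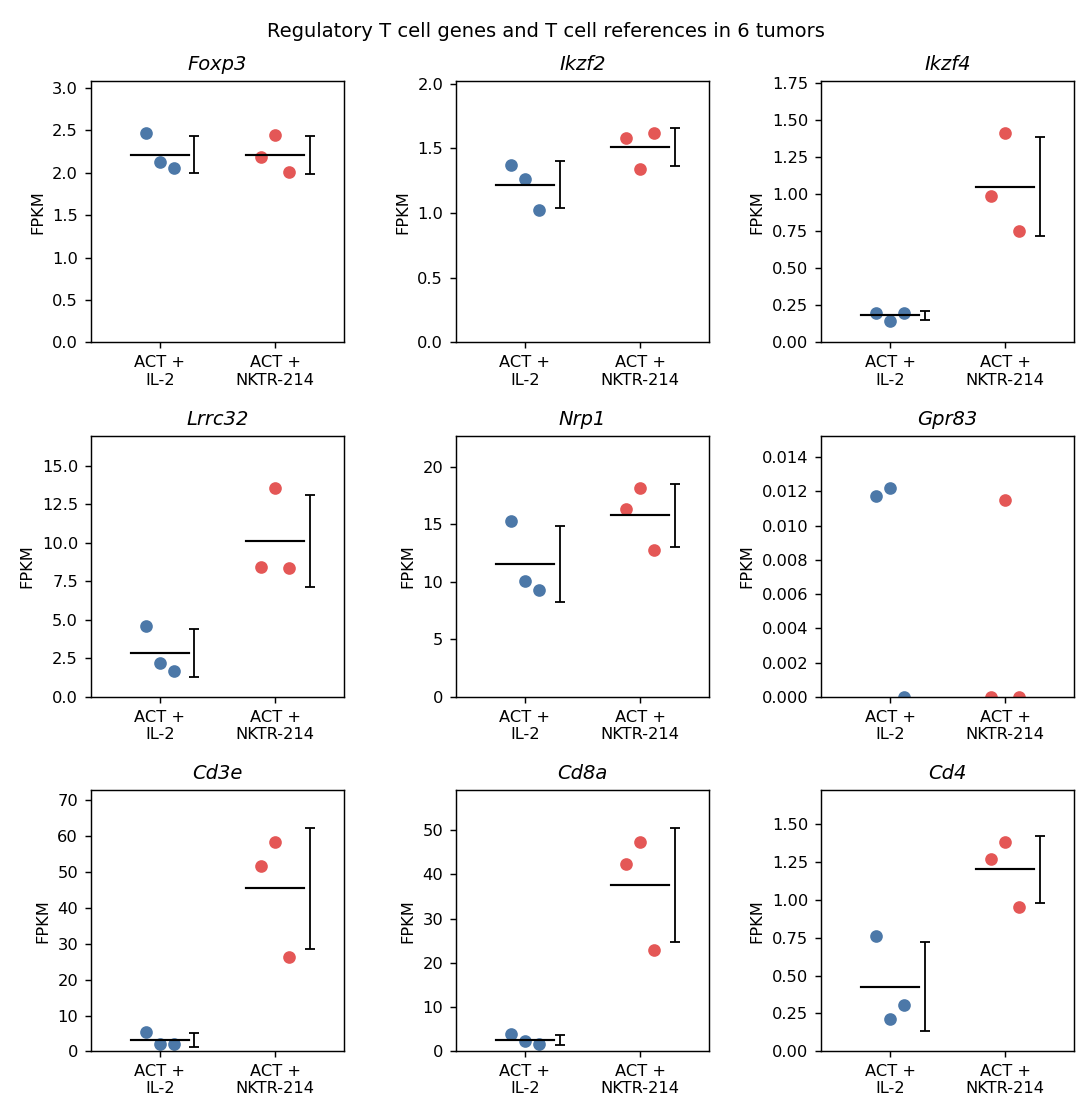
FPKM (linear axes from 0, a scale per panel) of the 6 Treg genes and of *Cd3e*, *Cd8a* and *Cd4* in 3 ACT + IL-2 and 3 ACT + NKTR-214 tumors, with a point per tumor in the order of replicates 1 to 3, a line at the mean and a bar of 1 SD (none for *Gpr83*). *Foxp3* lay between 2.00 and 2.46 FPKM in all 6 tumors, while *Cd3e* and *Cd8a* did not overlap between the groups.

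*Foxp3* (ENSMUSG00000039521, GRCm38 chromosome X, 7573644 to 7595245, plus strand) had the same mean level under both treatments. The ACT + IL-2 tumors had 2.46, 2.12 and 2.06 FPKM. The ACT + NKTR-214 tumors had 2.18, 2.44 and 2.00 FPKM. The groups overlapped almost fully, with means of 2.21 ± 0.219 and 2.21 ± 0.221 FPKM (SD, n = 3 each). On the log2(FPKM + 1) scale the difference (positive where ACT + NKTR-214 was higher, here and for all genes) was -0.00 with a 95% interval from -0.29 to 0.29 (limma, adjusted p = 0.996). These values rested on 169 to 234 estimated reads per library. Under quantile normalization, which moved the median of all genes by -0.15, *Foxp3* became lower by -0.29 (limma, adjusted p = 0.0303), or -0.19 relative to the median of all genes.

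The level of *Foxp3* was above that of *Cd4* in all 6 tumors, although Tregs carry CD4. In GENCODE vM21, 590 exon bases of *Foxp3* (12.9% of its exon bases) are shared with *Ccdc22*, a ubiquitous gene on the opposite strand. *Ccdc22* was 9.35 to 11.2 FPKM in the ACT + IL-2 tumors and 7.64 to 9.07 FPKM in the ACT + NKTR-214 tumors. It was thus above *Foxp3* in every tumor and lower after ACT + NKTR-214. The groups did not overlap, as for 42.4% of all tested genes, but the difference of -0.25 did not pass (limma, adjusted p = 0.221). Some *Foxp3* exons are also shared with *Flicr* (853 bases, same strand), *Gm36995* and *Ppp1r3f*. Whether the counting used strand was not given in the sources used here. Reads of *Foxp3* and of these neighbours therefore cannot be told apart in the shared bases. The part of these neighbours in the *Foxp3* level, in its difference between the groups and in its ratios was not tested.

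*Ikzf4* (Eos, ENSMUSG00000002578, chromosome 10, 128630843 to 128645991, minus strand) was higher in ACT + NKTR-214 tumors. It was 0.199, 0.147 and 0.201 FPKM in the ACT + IL-2 tumors and 0.985, 1.41 and 0.753 FPKM in the ACT + NKTR-214 tumors. All 3 ACT + NKTR-214 tumors were above all 3 ACT + IL-2 tumors, and the means of 1.05 ± 0.333 and 0.182 ± 0.0308 FPKM (SD, n = 3 each) were 5.77-fold apart. The difference was 0.78 ± 0.12 (SE) on the log2(FPKM + 1) scale (limma, adjusted p = 0.000103) and 1.99 with a pseudocount of 0.1, since adding 1 compresses a gene at this level. The estimated reads were 12 to 17 in the ACT + IL-2 libraries and 64 to 123 in the ACT + NKTR-214 libraries.

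*Ikzf2* (Helios, ENSMUSG00000025997, chromosome 1, 69531214 to 69687245, minus strand) did not pass the test. It was 1.37, 1.26 and 1.02 FPKM in the ACT + IL-2 tumors and 1.58, 1.34 and 1.62 FPKM in the ACT + NKTR-214 tumors. The groups touched, since ACT + IL-2 replicate 1 was above ACT + NKTR-214 replicate 2. The difference was 0.18 with a 95% interval from -0.08 to 0.44 (limma, adjusted p = 0.307), and its sign turned to -0.11 under quantile normalization.

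*Lrrc32* (GARP, ENSMUSG00000090958, chromosome 7, 98489283 to 98502181, plus strand) was higher in ACT + NKTR-214 tumors. It was 4.61, 2.20 and 1.70 FPKM in the ACT + IL-2 tumors and 8.42, 13.6 and 8.34 FPKM in the ACT + NKTR-214 tumors. The groups did not overlap, and the means of 10.1 ± 3.00 and 2.84 ± 1.56 FPKM (SD, n = 3 each) were 3.56-fold apart. The log2(FPKM + 1) difference was 1.58 ± 0.24 (SE; limma, adjusted p = 0.000141).

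*Nrp1* (ENSMUSG00000025810, chromosome 8, 128358604 to 128503363, plus strand) had the highest level of the 6 genes. It was 15.3, 10.1 and 9.27 FPKM in the ACT + IL-2 tumors and 16.3, 18.2 and 12.8 FPKM in the ACT + NKTR-214 tumors. The groups overlapped because ACT + IL-2 replicate 1 was above ACT + NKTR-214 replicate 3. The difference of 0.44 ± 0.18 (SE) on the log2(FPKM + 1) scale did not pass (limma, adjusted p = 0.0907). It passed without either of these tumors, with 0.64 (adjusted p = 0.00281 from limma) without ACT + IL-2 replicate 1 and 0.57 (adjusted p = 0.0126 from limma) without ACT + NKTR-214 replicate 3.

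*Gpr83* (ENSMUSG00000031932, chromosome 9, 14860210 to 14870789, plus strand) was at the limit of detection. It was 0.0117, 0.0122 and 0 FPKM in the ACT + IL-2 tumors and 0, 0.0115 and 0 FPKM in the ACT + NKTR-214 tumors. Each of the 3 values above 0 corresponds to 1 estimated read. In the 3 libraries with a count of 0, the upper end of the 95% interval was 0.0418 to 0.0493 FPKM. No difference was detectable at this depth, and *Gpr83* was below the mean of 0.1 FPKM asked of a tested gene.

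In all, 2 of the 5 tested Treg genes were higher in ACT + NKTR-214 tumors by limma and 0 were lower. At an unadjusted p under 0.05 the counts were 3 and 0. Among all 14172 genes tested, 20.7% were higher and 8.28% were lower, and the median difference was 0.05, beside 0.44 for the 5 Treg genes. The tumors of both groups did not overlap for *Ikzf4* and *Lrrc32*, which was so for 42.4% of all tested genes. When each gene's own variance replaced limma's, which is partly shared across genes, 128 of 14172 genes passed and none of the 5 did. The adjusted p-values were then 0.0634 for *Ikzf4* and 0.0862 for *Lrrc32* from limma fits without moderation.

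**Figure D2:**
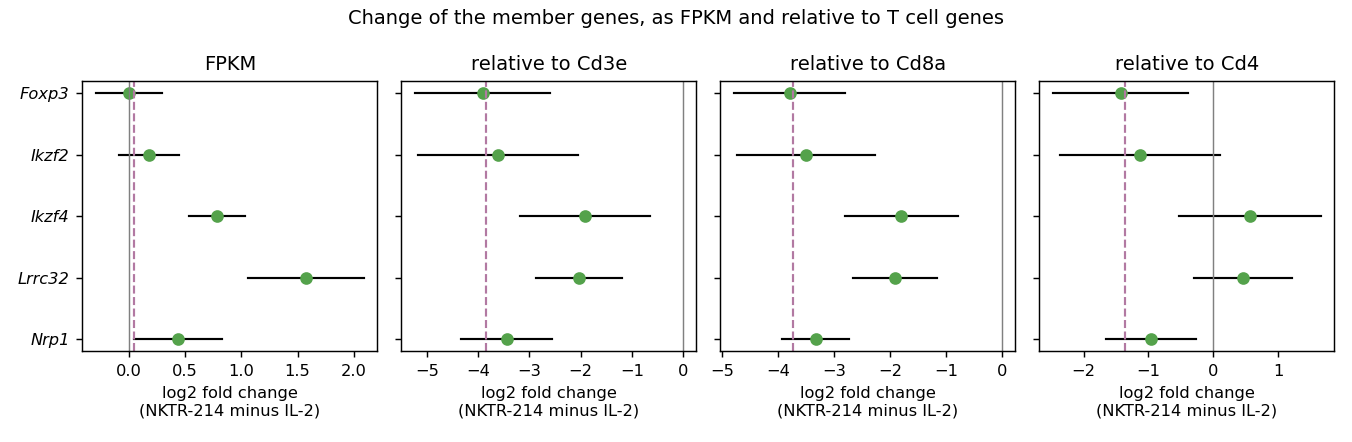
Log2 change (positive where ACT + NKTR-214 was higher) of 5 Treg genes with 95% intervals, on the log2(FPKM + 1) scale at left and relative to *Cd3e*, *Cd8a* and *Cd4* (pseudocount 0.1) in the other panels, whose intervals use each gene's own variance. The dashed line is the median of all genes tested, and *Foxp3* lies beside it in every panel while *Ikzf4* and *Lrrc32* lie above it.

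The levels of the Treg genes were next set against *Cd3e* and *Cd8a* of the same tumor, and these ratios were lower after ACT + NKTR-214, as they were for nearly all genes. *Foxp3* was 46.5, 108 and 103 FPKM per 100 FPKM of *Cd3e* in the ACT + IL-2 tumors and 4.23, 4.19 and 7.59 in the ACT + NKTR-214 tumors. Per 100 FPKM of *Cd8a*, *Foxp3* was 63.3, 91.5 and 119 FPKM in ACT + IL-2 tumors and 5.15, 5.17 and 8.71 FPKM in ACT + NKTR-214 tumors. The groups were far apart on both references, with geometric means 15.7-fold lower relative to *Cd3e* and 14.4-fold lower relative to *Cd8a*. Read the other way, *Cd8a* was 158, 109 and 84.1 FPKM per 100 FPKM of *Foxp3* after ACT + IL-2 and 1943, 1936 and 1149 FPKM after ACT + NKTR-214.

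*Ikzf2* gave the same order as *Foxp3*, with 25.9 to 64.1 FPKM per 100 FPKM of *Cd3e* in ACT + IL-2 tumors and 2.31 to 6.13 in ACT + NKTR-214 tumors. *Nrp1* was 288 to 510 against 31.2 to 48.5 FPKM per 100 FPKM of *Cd3e*. The 2 genes with higher FPKM had smaller falls against the references. *Ikzf4* was 3.76 to 10.1 against 1.91 to 2.86 FPKM per 100 FPKM of *Cd3e*, or 2.77-fold lower. *Lrrc32* was 85.1 to 112 against 16.3 to 31.6 FPKM per 100 FPKM of *Cd3e*, or 4.10-fold lower. None of these ratios overlapped between the groups, which was so for 96.6% of all tested genes relative to *Cd3e* and for 96.7% relative to *Cd8a*.

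In the fit relative to *Cd3e*, all 5 tested genes were lower, by -3.92 for *Foxp3*, -3.62 for *Ikzf2*, -3.45 for *Nrp1*, -2.03 for *Lrrc32* and -1.92 for *Ikzf4* on the log2 scale. Relative to *Cd8a*, all 5 were lower too, by -3.79, -3.49, -3.32, -1.90 and -1.80 in the same order. The *Ikzf4* value depends on the pseudocount, and relative to *Cd3e* it was -1.53 with 0.01 and -2.74 with 1. With the pseudocount of 0.1, the adjusted p-values ran up to 0.000975 relative to *Cd3e* and up to 0.000221 relative to *Cd8a* (limma). However, 98.3% of all tested genes were lower relative to *Cd3e* and 98.4% relative to *Cd8a*, with medians of -3.85 and -3.72, and only 0.0706% and 0.106% were higher. The count of 5 is therefore at the background of all genes and is not a result about Treg genes. Of all tested genes, 43.9% had a lower change than *Foxp3* in these fits, against 66.2% for *Ikzf2*, 73.6% for *Nrp1*, 95.7% for *Ikzf4* and 95.01% for *Lrrc32*.

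Limma's shared variance treats the spread of a reference that enters every gene as known from many genes, although it comes from 6 tumors. With each gene's own variance the interval for *Foxp3* was -5.24 to -2.59 relative to *Cd3e* (adjusted p = 0.00347, limma fit without moderation), and all 5 genes passed on both references, as did 13934 of the 14172 genes relative to *Cd3e* and 13961 relative to *Cd8a*.

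**Figure D3:**
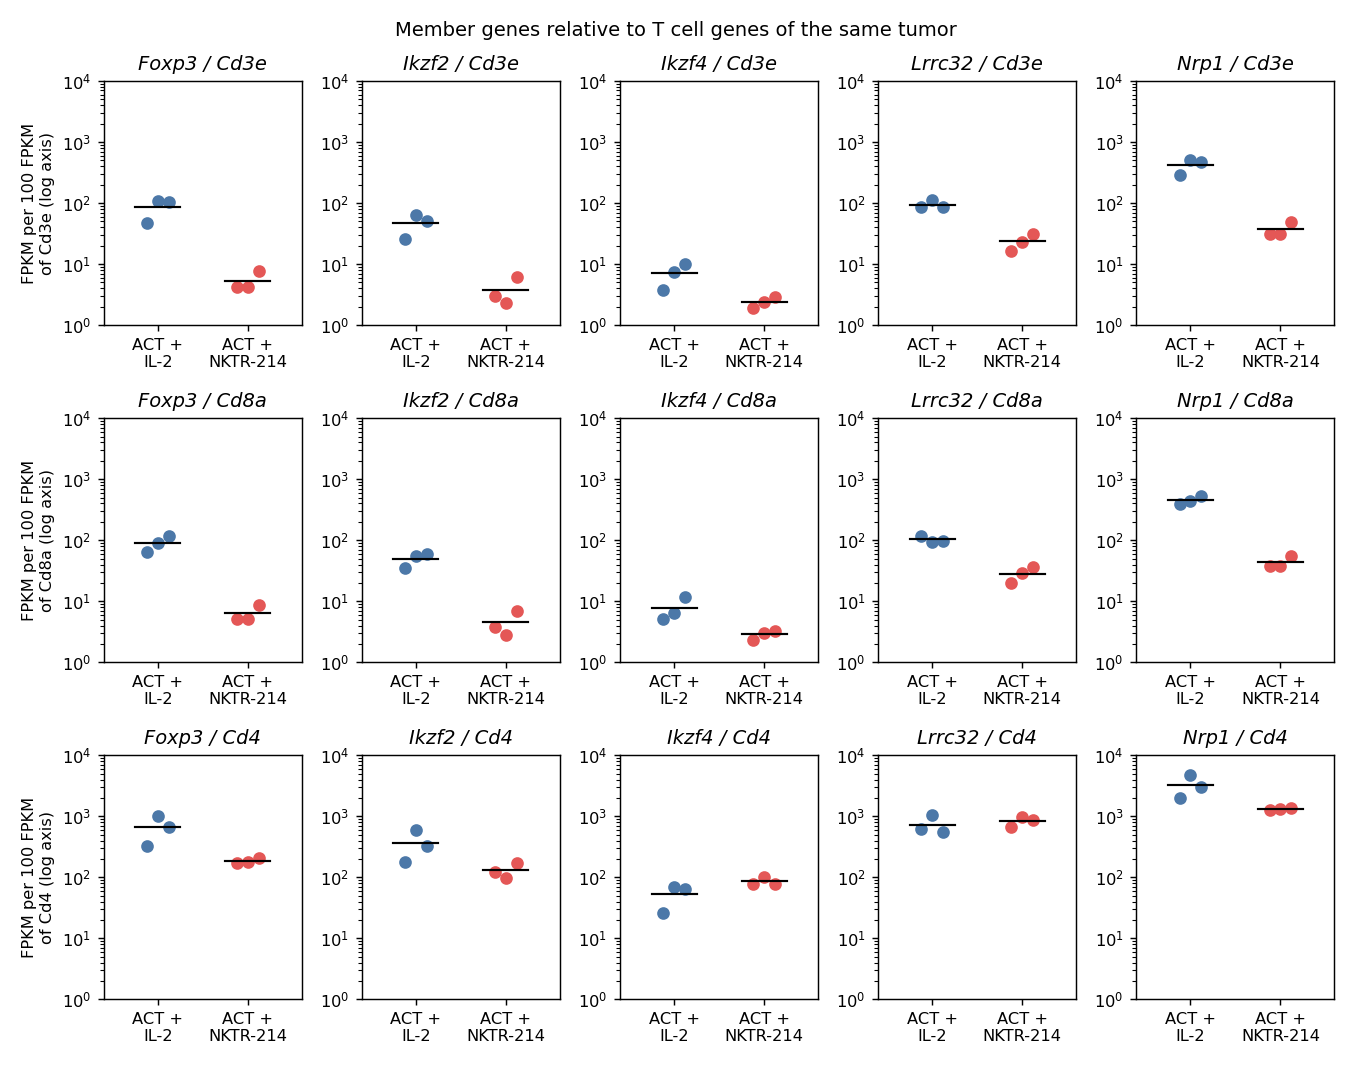
FPKM of 5 Treg genes per 100 FPKM of *Cd3e*, *Cd8a* or *Cd4* in the same tumor (log axes), with a point per tumor in the order of replicates 1 to 3 and a line at the mean of each group. The groups do not overlap in the upper rows, while *Lrrc32* relative to *Cd4* overlaps and *Ikzf4* relative to *Cd4*, which did not pass the test, has its 3 ACT + NKTR-214 points above the others.

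*Cd4* is the closest reference of the 3, since Tregs are CD4 T cells, but it was low, with 15 to 104 estimated reads per library. *Foxp3* was 325, 1003 and 665 FPKM per 100 FPKM of *Cd4* in the ACT + IL-2 tumors and 172, 177 and 210 FPKM in the ACT + NKTR-214 tumors. The lowest ACT + IL-2 tumor, replicate 1, was above all 3 ACT + NKTR-214 tumors, and ratios to *Cd4* did not overlap for 78.5% of all tested genes. In the fit relative to *Cd4*, *Foxp3* (-1.43, adjusted p = 0.00254), *Ikzf2* (-1.13, adjusted p = 0.0172) and *Nrp1* (-0.96, adjusted p = 0.0358) were lower by limma, so 3 of 5 genes passed. Of these, the *Foxp3* call held in 6 of 6 fits that omitted a tumor. The *Ikzf2* call held in 2 of 6 such fits and the *Nrp1* call in 1 of 6, and the count fell from 3 to 1 without ACT + IL-2 replicate 2 or 3 and without ACT + NKTR-214 replicate 1 or 2. Lower calls made up 74.6% and higher calls 2.84% of all tested genes, with a median of -1.36, so these 3 also moved like most genes. *Ikzf4* (0.57, adjusted p = 0.275) and *Lrrc32* (0.46, adjusted p = 0.324) did not pass in limma's test. With a pseudocount of 1 in place of 0.1, *Lrrc32* was higher relative to *Cd4* (0.94, adjusted p = 2.34e-06 by limma), *Nrp1* no longer passed (-0.20, adjusted p = 0.265 by limma) and the *Foxp3* value shrank to -0.64. With each gene's own variance, none of the 14172 genes passed relative to *Cd4*, where 2 of the 5 Treg genes had an unadjusted p under 0.05 and *Foxp3* had an adjusted p of 0.0501 (limma fit without moderation).

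The Treg genes were also set against *Foxp3*, which was level, so these ratios follow the FPKM differences given above. *Ikzf4* was 8.09, 6.90 and 9.76 FPKM per 100 FPKM of *Foxp3* in the ACT + IL-2 tumors and 45.1, 57.8 and 37.6 FPKM in the ACT + NKTR-214 tumors. *Lrrc32* was 187, 104 and 82.5 FPKM per 100 FPKM of *Foxp3* against 385, 556 and 416 FPKM. Both ratios did not overlap between the groups, as 43.4% of all tested genes did not relative to *Foxp3*, and were higher after ACT + NKTR-214, 5.64-fold for *Ikzf4* and 3.82-fold for *Lrrc32* by geometric means. *Nrp1* was 451 to 621 against 639 to 748 FPKM per 100 FPKM of *Foxp3*, which did not overlap, and *Ikzf2* was 49.7 to 59.6 against 55.0 to 80.7, which did. Over the 19 ratios of Treg genes to *Cd3e*, *Cd8a*, *Cd4* and *Foxp3*, exact two-sided permutation tests gave p = 0.1 for 17, the smallest that 3 against 3 tumors allow (0.112 after Benjamini-Hochberg adjustment), 0.3 (adjusted 0.317) for *Ikzf2* relative to *Foxp3* and 0.5 (adjusted 0.5) for *Lrrc32* relative to *Cd4*.

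Other molecules that Tregs carry were higher in ACT + NKTR-214 tumors, and activated CD8 T cells are known to carry most of them too. All 15 tested genes of the list of Treg surface molecules were higher, beside 20.7% of all genes, with a median difference of 1.68. *Il2ra* (CD25) was 0.872, 0.563 and 0.530 FPKM in the ACT + IL-2 tumors and 20.3, 24.5 and 19.4 FPKM in the ACT + NKTR-214 tumors, a difference of 3.76 on the log2(FPKM + 1) scale. The groups were far apart for this receptor chain. The inhibitory receptor gene *Ctla4* rose by 3.53 and *Tnfrsf18*, which encodes the costimulatory receptor GITR, by 2.88. The ectoenzyme gene *Entpd1* (CD39) rose by 1.68, and the costimulatory receptor gene *Tnfrsf9* (4-1BB), the most abundant of the list, was 11.2 to 21.1 FPKM against 39.6 to 52.5 FPKM. *Folr4*, an older symbol of *Izumo1r*, was the list entry with no row of its own.

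Of the 6 tested genes for suppressive mediators, 3 were higher and 0 lower by limma (also 3 and 0 at an unadjusted p under 0.05), beside 20.7% and 8.28% of all genes, with a median of 0.58. *Fgl2*, a secreted fibrinogen-like protein, rose by 1.81, *Tgfb1* by 1.58 and *Ebi3*, a subunit of IL-35 and IL-27, by 1.03. *Il10* (0.13), *Penk* (0.08) and *Areg* (-0.12) did not pass. *Il12a*, which encodes the other IL-35 subunit, was listed at 0 in all 3 ACT + IL-2 tumors and at 0.0588, 0.0298 and 0 FPKM in the ACT + NKTR-214 tumors, and like *Itgb8* it was too low to be tested.

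Among 17 genes that regulate *Foxp3* or act with its product, 12 were higher and 0 lower by limma (also 12 and 0 at an unadjusted p under 0.05), beside 20.7% and 8.28% of all genes, with a median of 0.76. The largest differences were those of *Nfatc1* (1.98), *Irf4* (1.74) and *Gata3* (1.52), transcription factors of activated T cells. *Stat5a* (0.17) and *Stat5b* (0.06), which transmit the IL-2 signal, did not pass, nor did *Cbfb* (0.29), *Foxp1* (0.02) and *Foxo3* (-0.22). Of the remaining Ikaros family, *Ikzf1* (2.33) and *Ikzf3* (2.18), which are broadly used in lymphocytes, were higher, and *Ikzf5* (-0.08) did not pass.

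Of 10 ligands and co-receptors of neuropilin-1, 3 were higher and 1 was lower, with a median of 0.15, beside the 20.7% higher and 8.28% lower among all genes. The semaphorin gene *Sema4a* rose by 2.51, the plexin gene *Plxna1* was lower by -0.44 (adjusted p = 0.0422, limma), and *Vegfa* (0.01) and *Nrp2* (0.01) did not pass. Of 6 tested genes on a list of GARP partners and other genes of latent TGF-β, 2 were higher and 0 lower by limma (20.7% and 8.28% of all genes). Their median was 0.09, and at an unadjusted p under 0.05 *Tgfb2* (-0.26) was the only 1 lower. The 2 higher genes were *Tgfb1*, the cytokine that GARP holds in its latent form and which is also on the mediator list, and *Nrros* (1.40), whose product holds latent TGF-β on myeloid cells. *Itgav* (-0.14) and *Tgfb3* (0.06) did not pass.

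**Figure D4:**
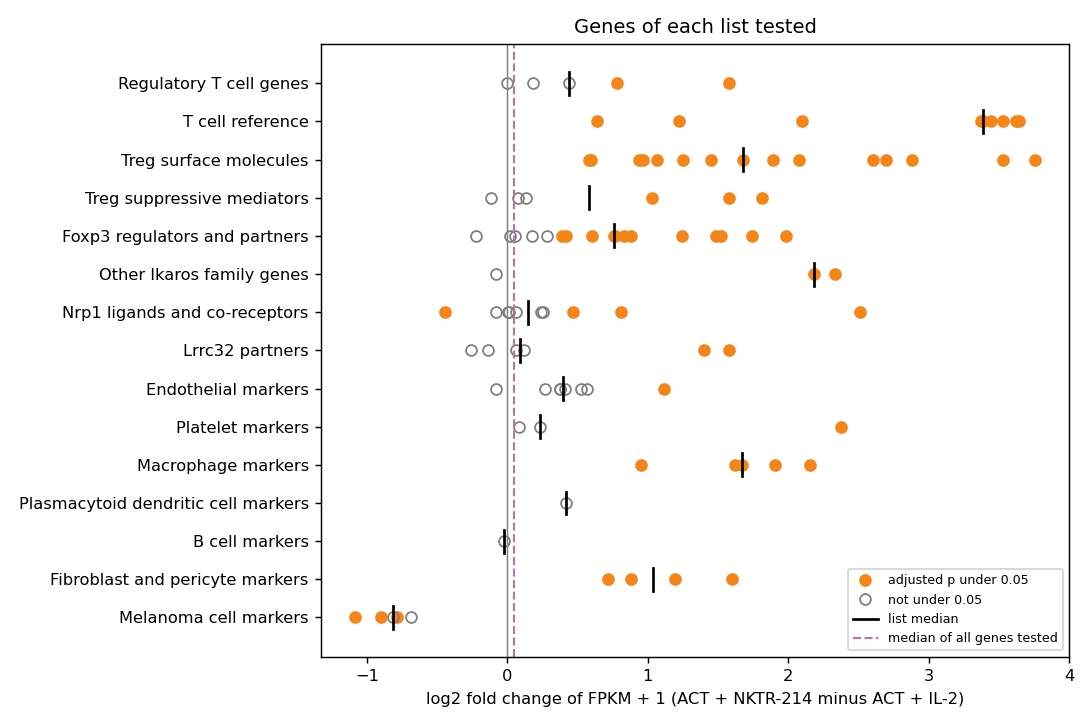
Log2(FPKM + 1) difference of every tested gene in each list, with filled points for an adjusted p under 0.05 in limma, a bar at the list median and a dashed line at the median of all genes tested (0.05). All T cell reference and Treg surface genes lie to the right of 0, and the 5 Treg genes spread from -0.00 to 1.58.

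Markers of other cells, among them those that can carry *Nrp1* or *Lrrc32*, were measured beside these genes, and their part in the results was not tested. Summed over 8 endothelial markers, FPKM ranged from 36.8 to 78.1 in ACT + IL-2 tumors and from 53.3 to 108 in ACT + NKTR-214 tumors. Only *Pecam1* of the 8 was higher (1.11), beside 20.7% of all genes, and *Cdh5* (0.37), *Egfl7* (0.27) and *Esam* (0.57) did not pass. At an unadjusted p under 0.05 the counts were 2 higher and 0 lower, with *Tek* (0.37, adjusted p = 0.0578 by limma) beside *Pecam1*. The list median was 0.39, beside 0.05 for all genes. Platelet markers summed to 6.05 to 22.3 and 46.8 to 87.5 FPKM, nearly all of it *Pf4* (2.37), the 1 of 3 tested that was higher, beside 20.7% of all genes. Of the other platelet genes, *Itga2b* did not pass (0.23, adjusted p = 0.099 by limma), with means of 0.517 and 0.780 FPKM, and *Gp9*, with means of 0.0352 and 0.135 FPKM, was too low to be tested. The groups did not overlap for either gene, as for 42.4% of all tested genes, and *Ppbp* (0.08) did not pass. All 5 macrophage markers were higher (20.7% of all genes), summing to 132 to 359 and 529 to 868 FPKM, among them *C1qa* (1.67), *Cd68* (1.91), *Csf1r* (1.62) and *Adgre1* (0.95).

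Fibroblast and pericyte markers were higher in 4 of 4 cases (20.7% of all genes) and summed to 92.3 to 257 and 240 to 472 FPKM, with *Col1a1* at 1.19, *Dcn* at 1.6, *Pdgfrb* at 0.72 and *Pdgfra* at 0.88. The 4 plasmacytoid dendritic cell markers summed to 1.2 to 2.16 and 1.52 to 2.80 FPKM, mostly *Pacsin1*, and their defining gene *Siglech* did not exceed 0.101 FPKM. The B cell gene *Cd79a* (-0.02) did not pass. Of 5 melanoma cell markers, 3 were lower and 0 higher by limma (5 and 0 at an unadjusted p under 0.05), beside 8.28% and 20.7% of all genes, summing to 5176 to 6627 FPKM in ACT + IL-2 tumors and 2554 to 3615 FPKM in ACT + NKTR-214 tumors.

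The genes with the most similar course over the 6 tumors were found from log2(FPKM + 0.1) profiles centred on their mean, by the root mean square difference from each Treg gene. For *Foxp3* they were *Rmi2* (0.04), *Smpdl3b* (0.04) and *Med31* (0.05), and 1879 of 11557 genes lay within 0.15, since many genes were as level as *Foxp3*. For *Ikzf2* they were *Tmem216* (0.09), *Gpc6* (0.10) and *Pla2r1* (0.10). For *Ikzf4* they were *Fam102a* (0.09), *Itpr3* (0.11) and *2200002D01Rik* (0.12), and only 9 of 11558 genes lay within 0.15. For *Lrrc32* they were *Ptafr* (0.06), *Mmp27* (0.07) and *Gda* (0.08), and for *Nrp1* they were *Rab29* (0.05), *Polr2h* (0.05) and *Paox* (0.06). *Ptafr*, which encodes the receptor for platelet-activating factor, was 4.50, 2.14 and 1.74 FPKM in the ACT + IL-2 tumors and 9.03, 14.7 and 8.74 FPKM in the ACT + NKTR-214 tumors, beside the *Lrrc32* values given above. None of the 15 genes named here is a T cell reference gene. The profiles were not scaled, so a gene with a much larger change, such as *Cd3e*, could not be near. Likeness over 6 tumors that fall into 2 groups is a description.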

How the data were processed

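RNA of 6 whole tumors, 3 per treatment, was sequenced as 50-base single-end reads. The deposited values are linear FPKM, which the authors made by aligning reads to GRCm38 (HISAT2 2.0.4) and quantifying genes (HTSeq). The annotation, the overlap mode and the strand setting were not given in the sources used here. Groups were taken from the labels and doses from the study's methods. Mapped reads per library were estimated from the steps of low FPKM values of genes with a single exon. The reads of a gene were then estimated with an exon length that gave whole reads within 0.05 in all 6 tumors. Among the shortest such lengths, the one closest to whole reads was taken. This was resolved for *Foxp3*, *Ikzf2*, *Ikzf4*, *Gpr83* and *Cd4* only. The search window of these estimates was narrowed, and the length rule for *Gpr83* adjusted, after first estimates gave no whole reads. No test uses these estimates. Intervals and limits from these reads cover counting error only.

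Values were taken as log2(FPKM + 1), and the 14172 genes whose mean FPKM reached 0.1 were compared by limma 3.58.1 in R 4.3.3 (eBayes with a trend). Calls were made at a Benjamini-Hochberg adjusted p under 0.05. The added 1 shrinks fold changes of low genes. Ratios used a pseudocount of 0.1 in the fits and none per tumor. On simulated data with log2 changes of 1 and 2, 78 of 100 and 96 of 100 genes were called, and 5 unchanged genes. P-values measure the spread between 3 mice per group.

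The members and lists were chosen with earlier results of these data known. Named genes were the 6 Treg genes, *Cd3e*, *Cd8a*, *Cd4*, up to 4 genes with the highest mean FPKM per list, the 3 largest changes of the surface, mediator and regulator lists, those that did not pass, and the 3 most similar profiles per Treg gene. Other genes were named after their values were seen. Alternatives were other pseudocounts, minimum levels, scalings, references and variance models, a replicate block and each tumor left out. Fits with each gene's own variance were added after seeing the data. Python 3.11.15, pandas 2.3.3, scipy 1.17.1 and matplotlib 3.10.9 were used. Genes of the lists that the text does not name, some of them under this rule, enter counts, medians and sums only.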

Additional observations from a re-analysis of the deposited data

How the results depend on the processing

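Of the 256 alternative values of single genes, 231 kept their direction and their side of the threshold. On the FPKM scale, *Ikzf4* and *Lrrc32* were higher in every fit that tested them with limma's partly shared variance. The number of Treg genes higher was 1 of 4 tested with a minimum mean FPKM of 1, which leaves out *Ikzf4*, and 0 with each gene's own variance in limma (2 at an unadjusted p under 0.05); under quantile normalization 1 was lower (*Foxp3*), and *Ikzf2* reversed to -0.11. Left-out tumors gave *Foxp3* log2 differences from -0.0532 to 0.0533, with reversed signs of 0.0533, 0.0029 and 0.0452 without ACT + IL-2 replicate 1, ACT + NKTR-214 replicate 1 and ACT + NKTR-214 replicate 3. Relative to *Cd3e* and *Cd8a*, all tested Treg genes were lower under every alternative. Relative to *Cd4*, 1 was higher with a pseudocount of 1 (*Lrrc32*, 0.94, adjusted p = 2.34e-06 by limma) and 2 were lower, since *Nrp1* no longer passed (-0.20, adjusted p = 0.265), 0 were lower with each gene's own variance (2 at an unadjusted p under 0.05), and 1 to 3 were lower with a tumor left out. It was 1 without ACT + IL-2 replicate 2 or 3 and without ACT + NKTR-214 replicate 1 or 2. The cause of these changes was not tested. Deviations from the group means had correlations of -0.21, -0.07 and 0.40 across genes between same-numbered tumors. Between differently numbered tumors of the 2 groups they ran from -0.54 to 0.59. Deviations from a mean of 3 tumors constrain one another, so these values cannot decide whether the numbers pair mice. With the replicate block 3 Treg genes were higher, *Nrp1* among them (0.44, adjusted p = 0.0451 by limma). Relative to *Cd4*, *Nrp1* no longer passed with this block (-0.96, adjusted p = 0.0623 by limma). Depth limits *Gpr83*, *Ikzf4* in ACT + IL-2 tumors and *Cd4*.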
